A study of Mus musculus with 6 samples.

Results

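In cultures of CD4+ T cells in which Foxp3-driven Cre deletes the gene of SRC2, a small group of genes best known from mast cells and other myeloid cells had mean levels 8.05- to 19.2-fold above those of control cells. The group was chosen by gene symbol and holds Mcpt1, Mcpt2, Il1rl1, Csf2rb, Csf2rb2 and Cd63, which are 6 of the 2387 genes of the expression table. It was selected on its high values in this same comparison, so its levels are given as a description and no test of them was made. Bulk RNA-seq was done on 3 libraries of Foxp3YFP-Cre cells, called control cells here, and on 3 of SRC2fl/fl/Foxp3YFP-Cre cells, called knockout cells, with a mouse of its own for each library. Naive splenic CD4+ T cells of both genotypes, obtained by negative selection, were cultured for 36 hours under Treg polarization, which was with antibodies to CD3, CD28, IL-4 and IFNγ and with TGFβ. Mice of both groups were young adults and carried the Foxp3YFP-Cre allele on a C57BL/6j background, and only the SRC2fl/fl/Foxp3YFP-Cre mice also carried floxed Ncoa2, the gene of the coactivator SRC2. Because Cre is made only in Foxp3-expressing cells, Ncoa2 is lost only as a cell turns Foxp3 on. No sort of Foxp3+ cells before sequencing is described, so the libraries are of the whole culture, in which fewer cells of a type and less RNA per cell cannot be told apart.

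Mast cells store chymases and other serine proteases in their granules and release them when antigen crosslinks IgE on the cell surface. IL-33, an alarmin set free by damaged tissue, acts on mast cells, on innate lymphoid cells and on some T cells through ST2, the product of Il1rl1. IL-3, IL-5 and GM-CSF act on mast cells, eosinophils, macrophages and other myeloid cells through a specific alpha chain and the beta common chain, which then activates JAK2 and STAT5. ST2 is also known from a subset of tissue Tregs, whereas the mast cell proteases are not genes that T cells are known for.

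The values are the authors' mean of the 3 libraries of a genotype in counts per 1000000 (CPM), with no value per library, so depth and the spread between mice are unknown and the means carry no SD. All 2387 genes of the table had a P value of the authors below 0.05. The check of the genotype gave 127 CPM of Ncoa2 in knockout cells against 164 CPM in control cells, a log2 ratio of -0.36 over the whole gene and not only its floxed part, and Foxp3 was at 42.4 CPM against 82.5 CPM. Of 15 T cell markers only Cd28 was in the table, at 256 and 180 CPM (log2 ratio -0.51). A gene outside the 2387 was read neither as changed nor as unchanged.

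Mcpt1 and Mcpt2 encode chymases of mucosal mast cells. On GRCm38, in the GENCODE M21 annotation, Mcpt1 lies on the plus strand at chr14:56017971-56020384 and Mcpt2 on the same strand at chr14:56042041-56044642. They are neighbours in a cluster of serine protease genes, 21.7 kb apart with 1 gene, Mcpt9, between them. The coding sequences begin almost alike, and the first 90 bases of each are shown to let a reader see how reads of one gene are told from those of the other. Capitals mark the 2 positions at which they differ.
Mcpt1: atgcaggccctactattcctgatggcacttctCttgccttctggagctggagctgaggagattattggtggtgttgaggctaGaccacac
Mcpt2: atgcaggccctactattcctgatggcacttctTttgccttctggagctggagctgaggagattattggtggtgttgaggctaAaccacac
Over 732 aligned coding bases the genes were 81.0% identical, and their longest identical run was 49 bases. No stretch of 50 bases of either transcript occurred in the transcripts of any other gene, so a read of that length that matches without error belongs to 1 of them.

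Mcpt1 had a mean of 0.359 CPM in control cells and of 5.88 CPM in knockout cells. The difference was 5.52 CPM and the ratio 16.4, or 4.04 on the log2 scale. Mcpt2 had a mean of 1.11 CPM in control cells and of 13.1 CPM in knockout cells, a difference of 12.0 CPM and a log2 ratio of 3.57. It had the highest CPM of the 6 genes in both genotypes. The ratio of Mcpt2 to Mcpt1 was 3.09 in control cells and 2.23 in knockout cells, so the balance of the chymase transcripts moved less than their sum, which went from 1.47 to 19.0 CPM. The plot of means by genotype shows every knockout mean above every control mean.

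**Figure D1:**
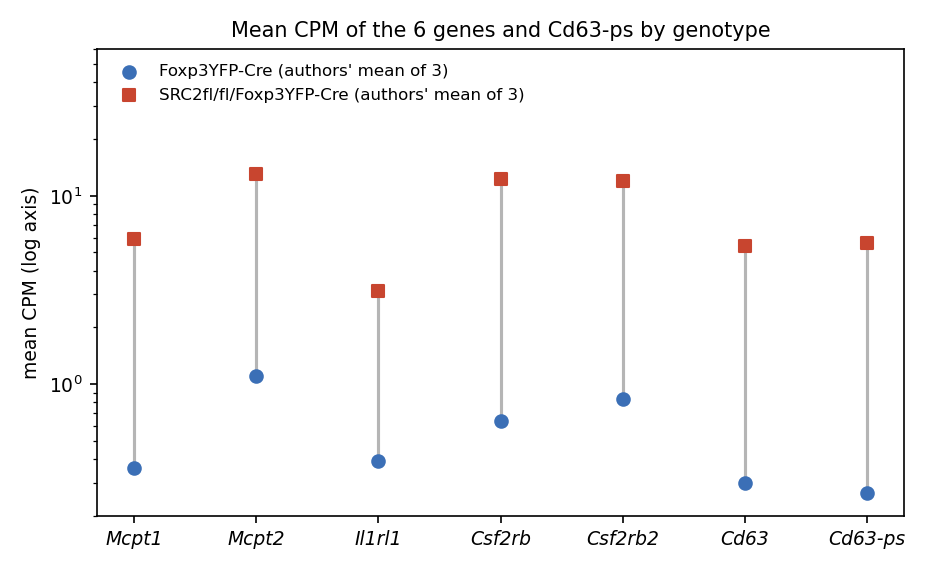
Mean CPM of the 6 genes and of the copy Cd63-ps (log axis) in Foxp3YFP-Cre cells (circles) and SRC2fl/fl/Foxp3YFP-Cre cells (squares), each the authors' mean of 3 libraries, with no error given. The circles lie between 0.264 and 1.11 CPM and the squares between 3.13 and 13.1 CPM.

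The cluster on chromosome 14 holds 15 serine protease genes by the list used here, and Mcpt1 and Mcpt2 were the 2 in the table. Among 14 mast cell proteases, 12 were not among the 2387 genes, including Cpa3, the carboxypeptidase of mast cell granules, and the tryptase genes Tpsab1 and Tpsb2. Mcpt8 and Prss34, proteases that mark basophils, were also outside it, and so were all 10 genes of the basophil list. Of 15 further mast cell markers 3 were in the table, all with higher means in knockout cells. They were Il1rl1, Cd63 and Slc18a2, the transporter that loads histamine and monoamines into granules. Slc18a2 stood at 0.885 and 3.00 CPM (log2 ratio 1.76). The direction of these 3 genes could not have come out otherwise, so nothing is read from it. Il1rl1 and Cd63 were chosen for their high values. No listed gene had a total under 10 CPM over the 6 libraries. At 0.885 CPM in control cells Slc18a2 could therefore be listed only as higher. Among all 2387 genes, 1652 were higher in knockout cells. Kit, Fcer1a and Ms4a2, the receptor genes that define mast cells, were outside the 2387 genes, so the name mast cell is used here for where the genes are known from and not for a cell type found in the cultures.

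Il1rl1 encodes ST2 in a membrane form that binds IL-33 and in a shorter soluble form that acts as a decoy. It lies at chr1:40429570-40465415 on the plus strand of GRCm38. The gene is known for a distal and a proximal promoter, and RefSeq (GRCm38.p6) gives a start for each of 2 promoters. The 250 bases before each start are shown because they hold sequence cores bound by GATA factors and NFAT, families with known roles at this locus or in activated T cells. Capitals mark GATAA and GGAAA on either strand.
Il1rl1 start 1, chr1:40429320-40429569, plus strand: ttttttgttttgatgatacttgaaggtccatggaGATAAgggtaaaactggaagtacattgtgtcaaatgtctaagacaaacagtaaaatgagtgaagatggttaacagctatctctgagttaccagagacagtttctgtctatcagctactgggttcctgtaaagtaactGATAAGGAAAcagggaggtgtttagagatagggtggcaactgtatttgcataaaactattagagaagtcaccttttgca
Il1rl1 start 2, chr1:40439379-40439628, plus strand: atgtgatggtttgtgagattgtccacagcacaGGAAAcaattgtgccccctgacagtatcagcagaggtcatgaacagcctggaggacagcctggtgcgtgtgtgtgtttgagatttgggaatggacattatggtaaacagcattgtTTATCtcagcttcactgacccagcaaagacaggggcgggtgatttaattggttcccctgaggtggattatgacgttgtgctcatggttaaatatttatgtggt
The window of the first start had 2 matches of GATAA, and the nearer one began 79 bases before the start and ran straight into a GGAAA. The window of the second start had GATAA once, on the minus strand, beginning 103 bases before the start.

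Il1rl1 had a mean of 0.388 CPM in control cells and of 3.13 CPM in knockout cells. Its difference of 2.74 CPM and log2 ratio of 3.01 were the smallest of the 6 genes. The gene also sat at the edge of what the table can show. The authors took genes with a total over 10 CPM across the 6 libraries as expressed, and no gene of the table had a smaller total, so at 0.388 CPM in control cells Il1rl1 could have been listed as higher only with a ratio of at least 7.59. The measured ratio was 8.05. The table gives 1 value per gene, so the membrane and the soluble form were not separated.

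Downstream of ST2, MyD88, IRAK kinases and TRAF6 lead to NF-κB. The list of this pathway had 20 genes, of which 6 were in the table, Il1rl1 and 5 others. Of the 5 others, 4 had lower means in knockout cells. Traf6, the ubiquitin ligase of the pathway, went from 387 to 265 CPM (log2 ratio -0.55) and Tab3, which helps to activate TAK1, from 27.5 to 20.7 CPM (-0.41). Tnfaip3, which encodes the NF-κB inhibitor A20, went from 433 to 293 CPM (-0.56), and Nfkbiz, the gene of the atypical IκB protein IκBζ, had a log2 ratio of -0.57. The exception was Nfkbia, the gene of the inhibitor IκBα, at 427 and 524 CPM (0.30). The median log2 ratio of all 2387 genes was 0.33, so Nfkbia was close to the middle of the table. That middle is not a level of no change, since every gene listed had a P value of the authors below 0.05.

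ST2 on Tregs and Th2 cells is known to go with GATA3, BATF and IRF4. Of 20 genes listed for ST2+ Tregs and type 2 responses, 6 were in the table, 3 of them higher and 3 lower in knockout cells. Besides Il1rl1, the higher ones were Batf (log2 ratio 0.42), a transcription factor of tissue Tregs, and the cytokine gene Il9, which went from 3.63 to 6.70 CPM (0.88). The lower ones were the transcription factors Gata3 (-0.31), Irf4 (-0.51) and Nfil3 (-1.49). Gata3, at 93.4 and 75.1 CPM, thus moved in the direction opposite to Il1rl1.

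Csf2rb encodes the beta common chain of the IL-3, IL-5 and GM-CSF receptors, and Csf2rb2 a second beta chain that mice have and that serves IL-3. Csf2rb lies at chr15:78325752-78353847 on the plus strand and Csf2rb2 at chr15:78282507-78305721 on the minus strand, so they are transcribed away from each other from starts 20.0 kb apart. Their coding sequences are close to each other along their whole length, and the first 90 bases are shown as for the chymases. Capitals mark the 3 positions at which they differ.
Csf2rb: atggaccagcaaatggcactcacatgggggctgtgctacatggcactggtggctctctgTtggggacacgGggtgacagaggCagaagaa
Csf2rb2: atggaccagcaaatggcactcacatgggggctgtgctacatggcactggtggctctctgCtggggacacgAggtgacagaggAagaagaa
Over 2628 aligned coding bases 95.2% were identical, with an identical run of 242 bases. Stretches of 100 bases that also occur in the other gene made up 4.63% of the Csf2rb transcripts and 6.82% of those of Csf2rb2. At 50 bases these shares were 12.3% and 18.4%. The shares are over all annotated transcripts of each gene together. Csf2rb has 7277 exon bases, while its longest coding transcript has 4900, so for a single transcript its share can be larger.

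Csf2rb had a mean of 0.638 CPM in control cells and of 12.2 CPM in knockout cells. Its ratio of 19.2 (log2 ratio 4.26, difference 11.6 CPM) was the largest of the 6 genes. Csf2rb2 had a mean of 0.830 CPM in control cells and of 12.0 CPM in knockout cells, with a ratio of 14.5 and a log2 ratio of 3.86. The genes therefore had nearly the same mean CPM in knockout cells, with a ratio of Csf2rb to Csf2rb2 of 1.02, against 0.769 in control cells. Reads of the shared stretches were divided between them by the authors' estimation, so the split is less certain than the sum. The sum does not depend on it and went from 1.47 to 24.3 CPM, a ratio of 16.5.

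The share of each gene's transcript sequence that is also found elsewhere is drawn in the plot of shared stretches. Among the 6 genes it was above 2% at 100 bases for Csf2rb, Csf2rb2 and Cd63. By this measure the values of these 3 are the most open to the division of reads. Il1rl1 shared 0.0438% at 50 bases. Only exact matches were sought and the read length is unknown, so shorter reads or reads with errors could be divided for the other genes too.

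**Figure D2:**
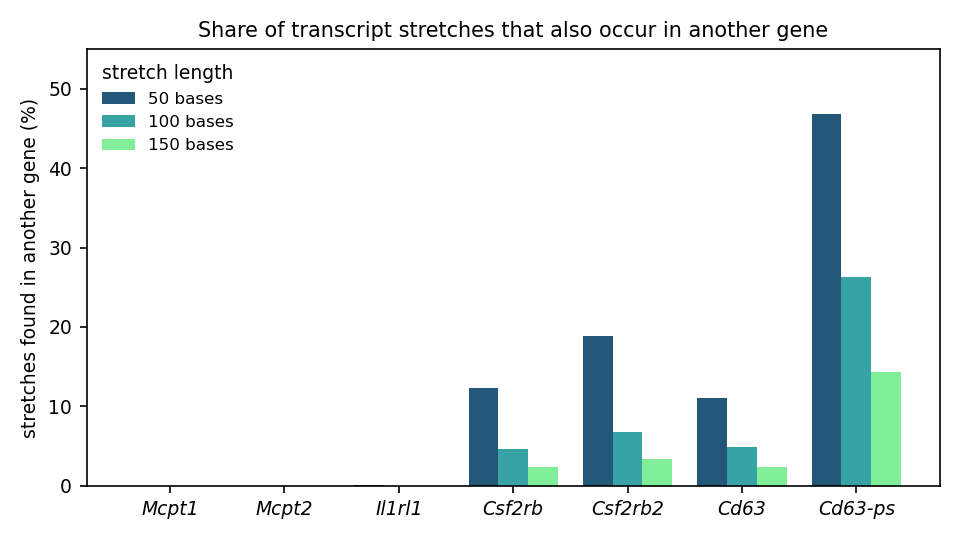
Share (%) of all distinct transcript stretches of 50, 100 and 150 bases of each gene that also occur in a transcript of another gene of GENCODE M21. Mcpt1 and Mcpt2 have none, Csf2rb and Csf2rb2 reach 12.3% and 18.9% at 50 bases, and Cd63-ps reaches 46.9%.

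The beta chains pass their signal to JAK2 and STAT5, and STAT5 then induces Cish, the Socs genes and Pim1. Of the 22 genes of this list 6 were in the table, the beta chains and 4 others. All 4 others had lower means in knockout cells. Pim1, a survival kinase, went from 291 to 141 CPM (log2 ratio -1.05). Cish, a feedback inhibitor of cytokine receptors, went from 537 to 388 CPM (-0.47), and the feedback inhibitors Socs2 and Socs3 had log2 ratios of -0.38 and -0.65. These targets also answer to IL-2 and other cytokines that T cells use. The alpha chains Csf2ra, Il3ra and Il5ra and the ligands Csf2, Il3 and Il5 were outside the 2387 genes.

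**Figure D3:**
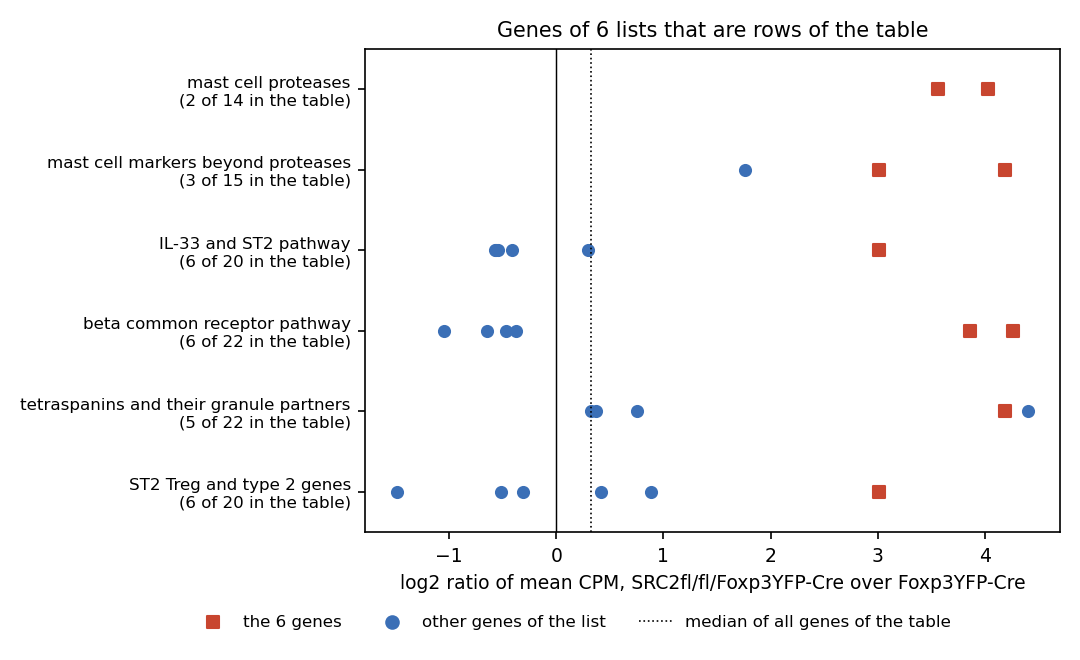
Log2 ratio of mean CPM, SRC2fl/fl/Foxp3YFP-Cre over Foxp3YFP-Cre, of the genes of 6 lists that are in the table (squares, the 6 genes; circles, other genes of the list; dotted line, median of all 2387 genes, 0.33). The circles of the IL-33 and beta common receptor lists lie between -1.05 and 0.30, while the squares lie between 3.01 and 4.26.

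Cd63 encodes a tetraspanin of lysosome and granule membranes that appears on the surface of mast cells and basophils when they degranulate. Many other cell types make it. It lies at chr10:128900989-128912822 on the plus strand. Cd63 had a mean of 0.297 CPM in control cells, the lowest CPM of the 6 genes, and of 5.41 CPM in knockout cells. The difference was 5.12 CPM and the ratio 18.2, or 4.19 on the log2 scale.

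The table also held Cd63-ps, a transcribed processed pseudogene of Cd63 at chr18:50134726-50135600. Cd63-ps had means of 0.264 and 5.60 CPM, a ratio of 21.2, and thus had nearly the same CPM as its parent, with a ratio of Cd63 to Cd63-ps of 1.12 in control cells and 0.966 in knockout cells. Of the 100-base stretches of Cd63-ps 26.3% were also in Cd63, and the other way round 4.81%. The second share is over all annotated transcripts of Cd63 together, with 3682 exon bases, while its longest coding transcript has 1109 bases. For a single transcript the share can therefore be larger. The levels of Cd63 and Cd63-ps are therefore uncertain one by one. Summed, they went from 0.561 to 11.0 CPM, a ratio of 19.6, which is the largest of the 4 values that remain once each pair of copies is counted together. Other tetraspanins in the table had far smaller ratios. Cd53, a leukocyte tetraspanin, had a log2 ratio of 0.37, Cd151 one of 0.75 and Tspan31 one of 0.33, and 17 of the 22 genes of the list were outside the table.

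Levels of different genes are compared per kb of exon, since a long transcript yields more reads. In knockout cells the level was 12.3 CPM per kb for Mcpt2, 5.80 for Mcpt1, 2.54 for Csf2rb2, 1.68 for Csf2rb, 1.47 for Cd63 and 0.454 for Il1rl1. In control cells the level ran from 1.04 CPM per kb for Mcpt2 to 0.0563 for Il1rl1. With the longest coding transcript in place of all exons, Cd63 came to 4.88 CPM per kb in knockout cells and passed both beta chains, and Csf2rb came to 2.50 beside 2.54 for Csf2rb2. The chymases stood first and Il1rl1 last by either length. Without values per library, no neighbours in this order could be set against their spread.

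All 6 genes were at least 2-fold higher in knockout cells, as were 125 of the 2387 genes, or 5.24%. The genes were chosen for high values, so nothing is read from this count. By log2 ratio they held ranks 6 (Csf2rb), 7 (Cd63), 8 (Mcpt1), 9 (Csf2rb2), 11 (Mcpt2) and 14 (Il1rl1), with Cd63-ps at rank 5. The median log2 ratio of the 6 genes was 3.95, and 0.33 over all 2387 genes, of which 1652 were higher and 735 lower. Just inside the last of them, Il1a, the gene of the alarmin IL-1α, had a log2 ratio of 3.05, and just outside it Rab44, the gene of a large Rab GTPase known from mast cells, had 2.98.

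In CPM, not corrected for length, the genes stood at the low end of the table. Their sum went from 3.62 to 51.8 CPM, and the highest mean among them, that of Mcpt2 in knockout cells, was above only 23.5% of the 2387 means of that genotype. In control cells 5 of the 6 genes were under 1 CPM. In all, 23 genes of the table were under 1 CPM in control cells and all 23 were higher in knockout cells, because a gene low in both genotypes falls under the total of 10 CPM. At the control means measured, this limit alone asked for ratios of at least 10.2 for Cd63, 8.30 for Mcpt1, 4.22 for Csf2rb, 3.02 for Csf2rb2 and 2.01 for Mcpt2. The measured ratios were far above the limit for Csf2rb, Csf2rb2 and Mcpt2, less so for Cd63 and Mcpt1, and barely for Il1rl1, as the plot of all genes shows.

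**Figure D4:**
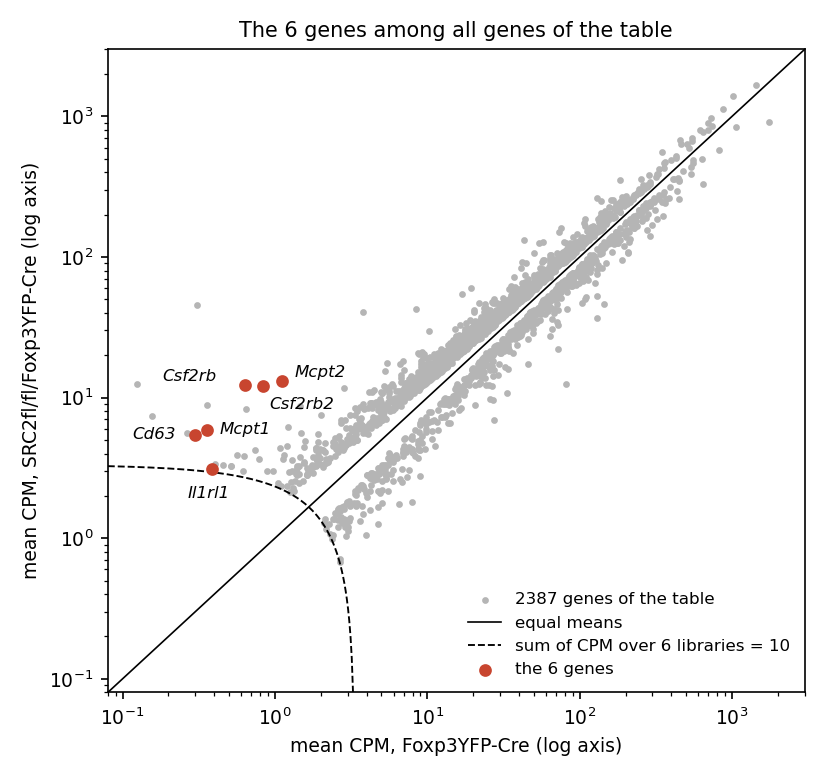
Mean CPM of the SRC2fl/fl/Foxp3YFP-Cre libraries against that of the Foxp3YFP-Cre libraries for the 2387 genes of the table (log axes; each mean is of 3 libraries, with no error given). The 6 genes (large points) lie far above the line of equal means, and Il1rl1 lies just above the dashed line, below which the sum of CPM over the 6 libraries is under 10.

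The means also set bounds on single libraries. With no negative value, no library can exceed 3 times the mean of its genotype, which in control cells was 3.32 CPM for Mcpt2, 2.49 for Csf2rb2, 1.91 for Csf2rb, 1.16 for Il1rl1, 1.08 for Mcpt1 and 0.890 for Cd63. All 6 genes had a ratio above 3, as did 1.68% of the 2387 genes, so no control library could have reached the knockout mean of any of them. The same arithmetic sets no lower bound on the knockout libraries. A mean of 13.1 CPM of Mcpt2 could come from 3 like libraries or from 1 library at 39.3 CPM, and whether 1 library carried the values could not be examined.

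Genes of other cell types stood beside the 6 genes in the table. Lyz2, the lysozyme of macrophages and neutrophils, was the 1 of 18 myeloid markers in the table and went from 0.310 to 45.4 CPM, which at a log2 ratio of 7.19 was rank 1. Of 15 B cell markers 4 were in the table, all higher: H2-Ab1 (log2 ratio 5.55), H2-Aa (4.63) and H2-Eb1 (1.02) encode MHC class II chains and Cd74 (0.43) their invariant chain, and dendritic cells and macrophages make them too. Of 11 dendritic cell markers 3 were higher, Ccl22 (3.42), Fscn1 (1.23) and Zbtb46 (0.65), and Ccr7, which naive T cells also express, was lower (-0.94). Of 8 megakaryocyte markers Itga2b alone was in the table, at 0.79, and of 11 markers of CD8 T, NK and innate lymphoid cells Rora alone, at -0.49. None of 10 eosinophil markers was in it. The part of other cells in the levels of the 6 genes was not tested.

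The genes closest to each of the 6 in both means were found by the distance between their pairs of log2 means, over the 2 genotypes. Several of the 6 lay closest to each other. Csf2rb and Csf2rb2 were each other's closest gene, at a distance of 0.38, Mcpt2 was closest to Csf2rb2 (0.43) and Mcpt1 to Cd63 (0.30). Closest to Cd63 was its copy Cd63-ps (0.17). Closest to Il1rl1 were Rab44 (0.03), at 0.387 and 3.06 CPM, and Il1a (0.12), at 0.406 and 3.35 CPM. Among genes other than the 6, Ifitm1, an interferon-induced membrane protein gene at 0.643 and 8.26 CPM, was closest to Csf2rb (0.57) and to Csf2rb2 (0.66). In the same way Il17f, a cytokine gene of Th17 cells at 1.46 and 8.68 CPM, was closest to Mcpt2 (0.72), and Cd63-ps to Mcpt1 (0.44). With 2 points per gene such likeness describes a pair of levels and no more.

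The other genes of the table that lie near the 6 had smaller ratios. Within 500 kb of the 6 genes and Cd63-ps the table held 17 other genes, 14 higher and 3 lower, with log2 ratios between -0.93 and 0.95. The highest was Il18rap, the gene of an IL-18 receptor chain in the receptor cluster that holds Il1rl1, which went from 1.63 to 3.15 CPM. The lowest was Ikzf4, the gene of the Treg transcription factor Eos, 255 kb from Cd63, at a log2 ratio of -0.93. Around the chymases, Psme2, Irf9, Ipo4 and Mdp1 had log2 ratios between 0.30 and 0.35 and Ripk3, a kinase of necroptosis, one of -0.41. Cenpj, in reach of Mcpt2 only, had 0.46. Around the beta chains, Txn2, Ift27 and Cyth4 had 0.27, 0.39 and 0.36.

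**Figure D5:**
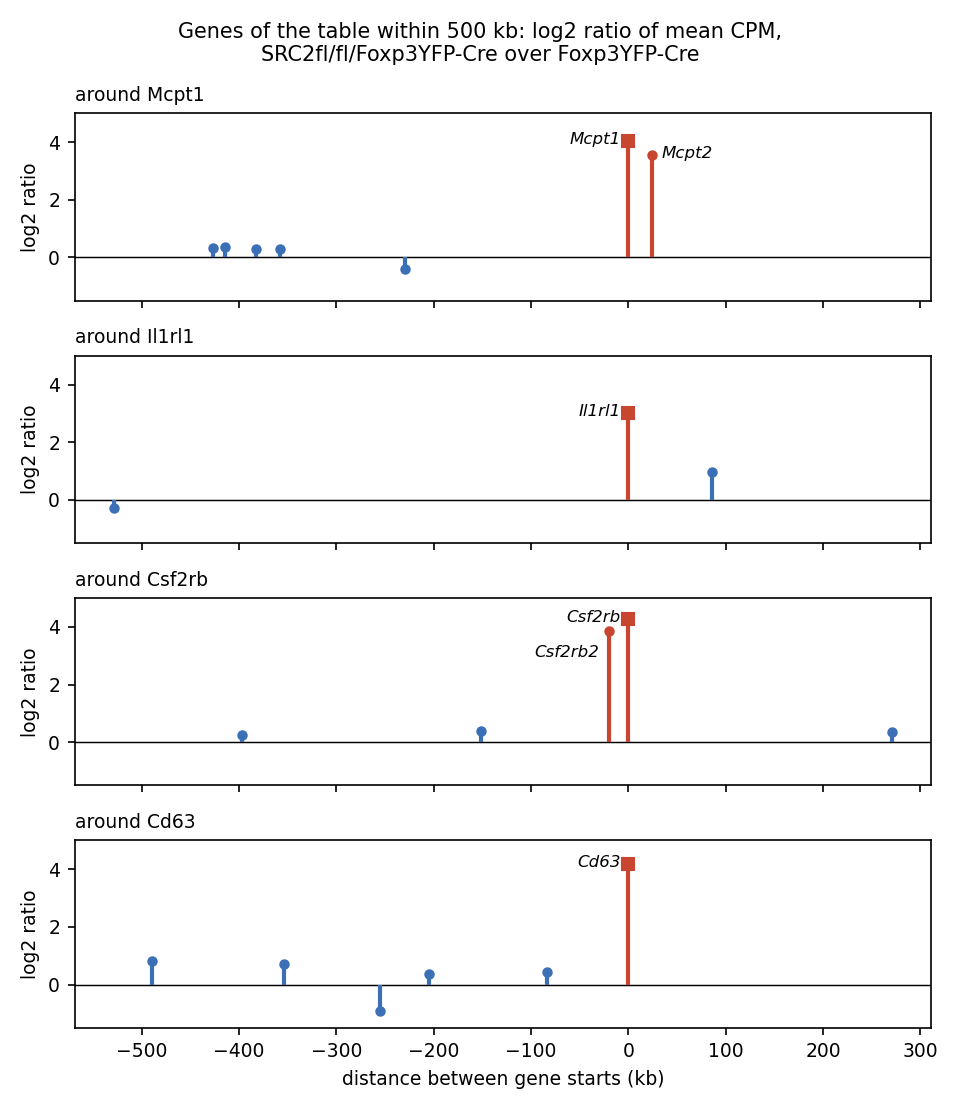
Log2 ratio of mean CPM, SRC2fl/fl/Foxp3YFP-Cre over Foxp3YFP-Cre, of the genes of the table within 500 kb of Mcpt1, Il1rl1, Csf2rb and Cd63, against the distance between gene starts in kb (red, the 6 genes; blue, others). The red points lie between 3.01 and 4.26 and the blue ones between -0.93 and 0.95.

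Of the 6 genes, 4 had a promoter sequence in the RefSeq table used (GRCm38.p6), Il1rl1 with its 2 starts and Cd63, Mcpt1 and Csf2rb2 with 1 each. The last 3 are shown beside those of Il1rl1 above, as 250 bases before the start, because they let a reader compare genes that had like ratios; the start RefSeq gives for Cd63 lies inside the GENCODE gene. Capitals again mark GATAA and GGAAA on either strand.
Mcpt1, chr14:56017714-56017963, plus strand: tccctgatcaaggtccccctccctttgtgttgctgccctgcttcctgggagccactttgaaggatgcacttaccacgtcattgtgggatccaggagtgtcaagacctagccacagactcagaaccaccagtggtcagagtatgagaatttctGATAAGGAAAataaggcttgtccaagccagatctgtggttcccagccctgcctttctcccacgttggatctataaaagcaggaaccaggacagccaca
Csf2rb2, chr15:78305722-78305971, minus strand: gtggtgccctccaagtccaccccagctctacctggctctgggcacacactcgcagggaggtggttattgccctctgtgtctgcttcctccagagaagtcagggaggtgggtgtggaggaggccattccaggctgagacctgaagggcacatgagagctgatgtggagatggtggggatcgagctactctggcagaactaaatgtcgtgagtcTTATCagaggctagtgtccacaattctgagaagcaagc
Cd63, chr10:128909095-128909344, plus strand: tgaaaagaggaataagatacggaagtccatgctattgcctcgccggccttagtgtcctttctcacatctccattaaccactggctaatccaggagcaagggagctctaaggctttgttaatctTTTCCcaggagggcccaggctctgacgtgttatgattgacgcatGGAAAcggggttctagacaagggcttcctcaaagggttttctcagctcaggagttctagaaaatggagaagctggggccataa
Matches were counted on both strands in windows from 250 bases before to 50 after a start. GATAA occurred in the windows of Mcpt1, Csf2rb2 and both starts of Il1rl1 and in 25.4% of 32851 promoters. GGAAA occurred in those of Mcpt1, Cd63 and both starts of Il1rl1 and in 61.3% of all. The E-box CANNTG, which reads the same on both strands, was in the windows of Csf2rb2 and both starts of Il1rl1 and in 72.3% of all.

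In the Mcpt1 window GATAA began 98 bases before the start and was followed at once by GGAAA, the same arrangement as at the first start of Il1rl1. The identical run was 12 bases long, ctgataaggaaa, and it was the longest that any pair of the 5 windows shared on the same strand. It began 100 bases before the start of Mcpt1 and 81 before that of Il1rl1, and it occurred in 6 of the 32851 promoters on either strand, these windows included. It was picked out after the sequences had been compared. A match describes letters of the reference and is neither a bound site nor a cause of the levels above.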

How the data were processed

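Bulk RNA-seq of CD4+ T cells after 36 hours of Treg polarization was analysed, with 3 Foxp3YFP-Cre and 3 SRC2fl/fl/Foxp3YFP-Cre libraries. After alignment to GRCm38, the authors estimated gene levels in Partek Flow by its E/M method, which divides reads that match several genes, and scaled them to CPM with 0.001 added. No source used here gives the aligner, the read length or the annotation. The deposited table gives the mean CPM of each genotype. In each of the 2387 genes a deposited column named as total counts was 3 times both means added up (relative tolerance 1e-06), so it is a summed CPM signal and not a count. The deposited p-value column was used only to see that every gene was below 0.05; the authors' adjusted p, ratio and fold columns were not used.

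The log2 ratio was computed as log2 of the SRC2fl/fl/Foxp3YFP-Cre mean over the Foxp3YFP-Cre mean, with no offset and no filter. As the table holds means only, nothing was tested, depth is unknown and no precision can be given. Named genes were the 6 genes and Cd63-ps, genes of lists of pathways and cell types that are in the table, Ncoa2 and Foxp3, for each of the 6 the 2 genes outside the 6 that were nearest in both means, and neighbours within 500 kb. The 6 genes and the lists were chosen with earlier results of these data known. Exon lengths, positions, coding sequences and shared stretches came from GENCODE M21 (GRCm38) and promoters from RefSeq (GRCm38.p6). Python 3.11.15, numpy 2.4.6, pandas 2.3.3, biopython 1.88 and matplotlib 3.10.9 were used. Offsets, another scaling, summed copies, other fold thresholds and a filter on low values were tried as alternatives.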

Additional observations from a re-analysis of the deposited data

How the results depend on the processing

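All 6 genes were higher in knockout cells under each offset and scaling tried. This does not check the direction, since an offset added to both means cannot change which is higher. A sum of copies that are both higher cannot change it either. The alternatives show only how far the sizes of the ratios moved. Shares of all genes are over the 2387 genes of the table, each with a P value of the authors below 0.05, and not over the transcriptome. With 1 CPM added to both means, their log2 ratios ran from 1.57 to 3.01 with a median of 2.54, and all 6 were at least 2-fold higher (3.1% of all genes). With 5 CPM added they ran from 0.59 to 1.61 with a median of 1.28, and the count at least 2-fold higher went from 6 to 4 (all genes: from 5.24% to 1.01%), since Il1rl1 (0.59) and Cd63 (0.98) dropped below 2-fold. Relative to the median of all genes they ran from 2.68 to 3.93 with a median of 3.62, and all 6 were at least 2-fold higher (2.22% of all genes). That median is of genes listed as different, 1652 higher and 735 lower, so it cannot check how the genotypes were scaled. With each pair of copies summed, the highest was 4.30 and the median 3.87, and all 4 values were at least 2-fold higher, as were 5.24% of all genes counted one by one. All 6 were also past 1.4-fold, as were 26.3% of all genes, and past 4-fold, as were 1.17%. With a lowest ratio of 8.05 among the 6, these thresholds could not change their count. A minimum of 5 CPM in the higher genotype left 5 of the 6, without Il1rl1, all at least 2-fold higher, as were 3.62% of the 2207 genes left. Leaving out each replicate was not run, since it needs values per library. No paired analysis was possible because the table holds the mean of each genotype only. Depth is unknown, so the number of reads behind a level near 1 CPM is unknown too.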

Other observations

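Further genes with low means in control cells and higher ones in knockout cells were picked out after their values had been seen. Alox5, which makes leukotrienes in mast cells and other myeloid cells, had means of 0.736 and 4.23 CPM (log2 ratio 2.52, rank 22). Cfb, a complement factor gene, had 0.125 and 12.5 CPM (6.65, rank 2), and the complement gene C3 had 1.22 and 6.14 CPM (2.33, rank 24). Fosl1, an AP-1 subunit gene, had 0.513 and 3.25 CPM (2.66), and Plac8 0.454 and 3.34 CPM (2.88). The cytokine gene Tnf, which mast cells, macrophages and T cells all make, had 8.39 and 42.8 CPM (2.35). Like the 6 genes these come from 1 mean per genotype and have no error.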
